A study of Mus musculus with 12 samples.

Results

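The small leucine-rich proteoglycan genes read here are a list of 10: Dcn, Bgn, Aspn, Lum, Fmod, Prelp, Kera, Omd, Ogn and Epyc. They are among the 21938 protein-coding genes of the mouse annotation (GENCODE M21). They were chosen by name as members of this gene family, and each was read through a window of the gene body plus 20000 bp on either side in the mm10 genome. All 10 genes were found in the annotation. Below, the family means these 10 listed genes only, and other leucine-rich repeat genes were read apart from them as relatives. Histone marks in these windows were taken from chromatin immunoprecipitation followed by sequencing (ChIP-seq) of mesenchymal stem cells (MSCs), which are stromal cells of bone and marrow able to form bone, cartilage and fat. According to the sample labels, the cells were bone-marrow MSCs of mice aged 3 to 5 months, purified by flow cytometry on day 12 and kept either at 2% oxygen (hypoxia) or at 21% oxygen (normoxia). The study's methods describe cells isolated from bone fragments in hypoxia and sorted for Sca-1 and CD140a and against CD45 and TER-119. Only then were they divided between the oxygen levels and cultured there for a week, so all groups share the isolation in hypoxia. The mice were wild-type males of the C57BL/6N strain, and the sources used here do not say how many mice went into a library.

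Each oxygen level had 2 libraries for acetylation of histone H3 at lysine 27 (H3K27ac), 2 for trimethylation at lysine 4 (H3K4me3) and 2 inputs, 12 in all. The authors deposited a single peak list for each mark and oxygen level, made from both libraries of the group. The lists held 15203 H3K27ac peaks in hypoxia and 14832 in normoxia, and 14606 and 14603 H3K4me3 peaks. They give positions and a score but no read counts, so depth and the spread between replicates are unknown, no difference below has a replicate check, and no test was made. In such a list of a bulk culture, a mark carried by fewer cells and a weaker mark in every cell cannot be told apart.

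Small leucine-rich proteoglycans are secreted core proteins folded from leucine-rich repeats, many of which carry chondroitin, dermatan or keratan sulfate chains. They sit on collagen fibrils and regulate fibril thickness and spacing in bone, tendon, cartilage and cornea, and several bind growth factors of the TGF-beta and BMP families. H3K27ac is found at active promoters and enhancers, whereas H3K4me3 is found mainly at promoters, most of which are rich in CG dinucleotides (CpG). As a check of the cell type, H3K27ac lay within 1000 bp of a start of 8 of 10 stromal marker genes and H3K4me3 of 9 of 10. The genes of both sort markers, Pdgfra and Ly6a, had H3K27ac at their start, although Ly6a had no H3K4me3 there. None of the 5 blood markers or 3 endothelial markers had either mark at a start. Of the red cell markers Klf1 and Hbb-bt, Klf1 had H3K4me3 without H3K27ac at its start and Hbb-bt had neither mark.

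The proteoglycan genes were first sorted by the marks at their transcription start, that is, by a peak within 1000 bp of an annotated start. H3K27ac was present at 8 of 10 genes in each oxygen level, against 37.6% of all protein-coding genes in hypoxia and 37.0% in normoxia. H3K4me3 was present at 4 of 10 in each oxygen level, against 58.9% of all genes in hypoxia and 58.9% in normoxia. In the family H3K27ac was the mark found at more starts, whereas over all genes it was H3K4me3.

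These marks divided the family into 3 states, which were the same at both oxygen levels. Bgn (biglycan, abundant in bone matrix), Fmod (fibromodulin, a keratan sulfate proteoglycan of tendon), Prelp (prolargin, which links collagen to basement membrane) and Ogn (osteoglycin) carried both marks. Dcn (decorin, which binds collagen fibrils and TGF-beta), Lum (lumican, known for its part in corneal transparency), Aspn (asporin, named for its stretch of aspartate residues) and Omd (osteomodulin, a proteoglycan of mineralised bone) carried H3K27ac alone. Kera (keratocan of the corneal stroma) and Epyc (epiphycan of growth plate cartilage) carried neither.

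Among all protein-coding genes, 35.8% had both marks at both oxygen levels and 39.9% had neither. H3K27ac without H3K4me3 was the rare state, held by 240 genes or 1.09%, and 4 of these were listed proteoglycan genes. The related genes Optc, Podnl1 and Nyx, described below, were also in this state. Of genes with H3K27ac at a start, 3.08% lacked H3K4me3 there in hypoxia (254 of 8254) and 2.97% in normoxia (241 of 8121), compared with 4 of 8 in the family. In these genes the missing mark was far away: the nearest H3K4me3 peak lay 165.1 kb from the Dcn start, 250.6 kb from that of Lum and 63.0 kb from that of Aspn. For Omd it lay 24.7 kb away, at the start of Ogn.

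The score, which is the authors' own value for a peak, starts at 50 in each list, with the top group of peaks at 1000, and its definition is not given in the sources used here. It was read as a rank within a list, and raw scores of shared peaks were also counted by direction between the lists. H3K4me3 scores at the family's starts were low in 3 of the 4 genes that carried the mark. They were 123 at Bgn, 120 at Prelp and 88 at Ogn in both lists, with 20.3%, 13.7% and 8.5% of H3K4me3 peaks scoring lower. At Fmod the score was 1000, above 85.9% of peaks. Without the lowest-scoring 25% of peaks, Fmod was the only one of the 10 genes with H3K4me3 at its start, whereas H3K27ac stayed at 8 starts in each list.

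**Figure D1:**
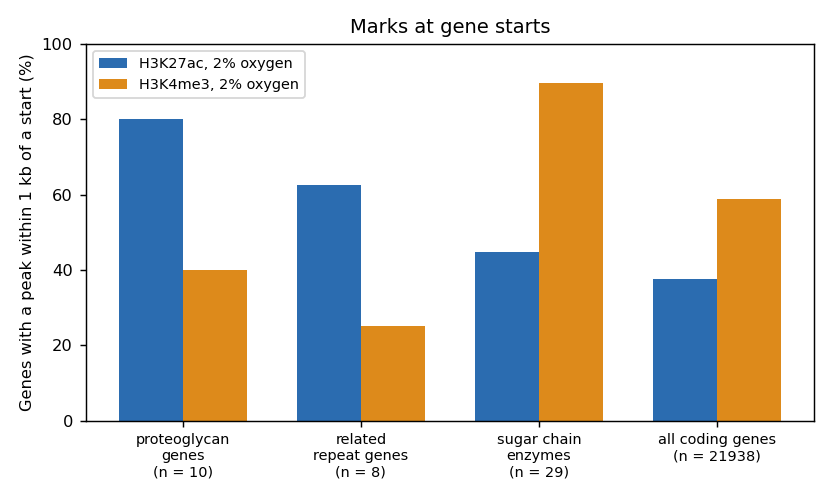
Percentage of genes with an H3K27ac peak (blue) or an H3K4me3 peak (orange) within 1 kb of a transcription start at 2% oxygen, for the small leucine-rich proteoglycan genes, 8 related leucine-rich repeat genes, 29 enzymes of sugar chain synthesis and all protein-coding genes. H3K27ac is the higher bar in the proteoglycan genes (8 of 10 against 4 of 10) and in the related repeat genes (5 of 8 against 2 of 8). H3K4me3 is the higher bar among the enzymes and in all genes (58.9% against 37.6%).

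To see whether the starts with H3K4me3 differed in sequence from those without, the bases before each start were compared. The promoter table (RefSeq, GRCm38.p6, the assembly that mm10 stands for) held 8 of the 10 genes, and Dcn and Lum were not in it. The 150 bases before the start, upstream of the start in both RefSeq and GENCODE, are shown for the 4 genes with both marks, for 2 genes with H3K27ac alone and for both starts of Epyc, which had no mark. All are written in the direction of transcription, with CpG in capitals, because CpG content is what usually goes with H3K4me3 at a promoter.
Bgn, both marks, chrX:73483451-73483600, plus strand: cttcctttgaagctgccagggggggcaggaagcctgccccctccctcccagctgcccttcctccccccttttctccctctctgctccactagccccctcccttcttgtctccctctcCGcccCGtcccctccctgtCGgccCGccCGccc
Fmod, both marks, chr1:134037104-134037253, plus strand: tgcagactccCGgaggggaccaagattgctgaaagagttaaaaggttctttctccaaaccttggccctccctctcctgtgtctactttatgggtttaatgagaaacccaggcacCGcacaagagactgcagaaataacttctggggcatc
Prelp, both marks, chr1:133921415-133921564, minus strand: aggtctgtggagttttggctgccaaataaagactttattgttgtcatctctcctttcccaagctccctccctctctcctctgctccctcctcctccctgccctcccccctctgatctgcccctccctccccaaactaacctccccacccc
Ogn, both marks, chr13:49607865-49608014, plus strand: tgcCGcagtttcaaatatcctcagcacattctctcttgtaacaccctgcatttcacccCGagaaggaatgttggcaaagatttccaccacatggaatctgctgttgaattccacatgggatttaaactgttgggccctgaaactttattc
Aspn, H3K27ac alone, chr13:49544293-49544442, plus strand: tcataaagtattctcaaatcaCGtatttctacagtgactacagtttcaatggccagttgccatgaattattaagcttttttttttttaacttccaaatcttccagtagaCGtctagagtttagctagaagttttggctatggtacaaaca
Omd, H3K27ac alone, chr13:49582312-49582461, plus strand: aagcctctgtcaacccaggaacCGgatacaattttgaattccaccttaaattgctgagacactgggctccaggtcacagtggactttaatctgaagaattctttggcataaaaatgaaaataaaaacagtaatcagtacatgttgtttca
Epyc, no mark, first start, chr10:97643918-97644067, plus strand: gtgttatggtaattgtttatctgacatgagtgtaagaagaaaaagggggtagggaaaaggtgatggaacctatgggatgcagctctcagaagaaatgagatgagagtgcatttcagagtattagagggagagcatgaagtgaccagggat
Epyc, no mark, second start, chr10:97646939-97647088, plus strand: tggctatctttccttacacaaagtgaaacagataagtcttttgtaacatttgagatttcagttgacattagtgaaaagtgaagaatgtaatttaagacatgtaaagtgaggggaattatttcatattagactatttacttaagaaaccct

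The printed stretches held 5 CpG in Bgn, 2 each in Fmod, Ogn and Aspn, 1 in Omd and 0 in Prelp and at both starts of Epyc. Over the full 250 bases before each start, the ratio of observed to expected CpG was 0.37 in Ogn, 0.28 in Bgn, 0.28 in Prelp and 0.12 in Fmod, the genes with both marks. It was 0.36 in Aspn and 0.11 in Omd, with H3K27ac alone, and 0.09 in Kera and 0.27 and 0.00 at the 2 starts of Epyc, with neither mark. For Kera the RefSeq start (97607205) is downstream of the GENCODE start (97606879), where marks were read, so its 250 bases lie inside the GENCODE gene. The ranges of the 3 states overlapped, so CpG content before the start did not separate them.

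All of these values were below the median of 16522 protein-coding promoters, 0.56. In that set the median was 0.79 for 6288 promoters with both marks in hypoxia, 0.68 for 3789 with H3K4me3 alone, 0.23 for 165 with H3K27ac alone and 0.19 for 6263 with neither. Among the promoters with both marks, 8.57% had a ratio of 0.37 or less, the range of all 4 proteoglycan genes in that state. The median GC content over all promoters was 56.0%. Bgn, with 64.4%, was the only one of the 8 genes above it, and the others ranged from 55.6% in Prelp and 51.2% in Fmod down to 30.0% in Aspn.

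The whole H3K27ac peaks at the starts, which also covered Dcn and Lum, gave the same picture. The ratio of observed to expected CpG was 0.11 at Bgn, 0.17 at Prelp, 0.20 at Fmod and 0.25 at Ogn, where the identical interval was also an H3K4me3 peak. It was 0.12 at Aspn, 0.18 at Dcn, 0.19 at Omd and 0.28 at Lum, where it was not. Over all hypoxia H3K27ac peaks the median was 0.58 for 7452 that were also H3K4me3 peaks and 0.20 for 7751 that were not. The start peaks of Bgn, Prelp, Fmod and Ogn thus lay nearer to the peaks without H3K4me3 in this measure.

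Short motifs were searched on both strands in the 250 bases before the starts. TATAAA was found in 2 of the 8 genes, Aspn and Ogn, against 11.9% of all promoters. CCAAT was found in Aspn, Kera and Prelp, against 36.0%. GGGCGG, the GC box, was found in Bgn alone, with 3 matches of which the last 2 overlap, against 44.3%. The E-box form CANNTG was found in Bgn, Aspn, Fmod, Ogn and Epyc, against 62.3%, and ACGTG, the core of the hypoxia response element, in Aspn and Epyc, against 17.9%. GGAATG was found in Ogn and Epyc, against 11.3%, and ACCACA in Ogn alone, where it overlaps a CANNTG match, against 12.2%. TGANTCA was found in none of the 8, against 6.22%. Epyc was counted as 1 gene over both of its starts, whereas the shares are of promoters. Its ACGTG match lay before the first start, and its CANNTG and GGAATG matches before the second. All motif matches describe letters and not binding.

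Beyond the starts, the family's windows were compared by the share of bases under H3K27ac. A peak of this mark lay in the window of 9 of 10 genes at each oxygen level, against 55.0% of genes in hypoxia and 54.6% in normoxia. The median share covered was 29.0% in hypoxia and 27% in normoxia, whereas over all genes it was 2.56% and 2.45%, with an upper quartile of 9.8% and 9.5%. The median window was 51721 bp in the family and 57425 bp over all genes. For H3K4me3, 5 of 10 windows held a peak at each oxygen level, against 69.7% of genes in hypoxia and 69.7% in normoxia, and the median share covered was 3.54% against 3.78% over all genes.

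The order of the genes by H3K27ac cover in hypoxia began with Bgn at 61.1% of its window, a share above that of 99.1% of all genes. Lum followed with 43.1%, Aspn with 41.3% and Fmod with 37.2%. Prelp had 29.2% and Omd 28.8%. Ogn had 13.2%, Dcn 12.1%, Kera 6.7% and Epyc 0.0%. Windows of neighbours overlap, so part of the Omd start peak also counts for Aspn and Ogn, and the Ogn start peak also counts for Omd. With 1 list per oxygen level there is no spread against which neighbours in this order could be set. In 8 of the 10 genes the same peaks were called at 21% oxygen, and because the lists share boundaries the cover was identical. Cover was lower in Omd (24.8%) and Ogn (9.7%), whose windows share the same hypoxia-only peak.

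**Figure D2:**
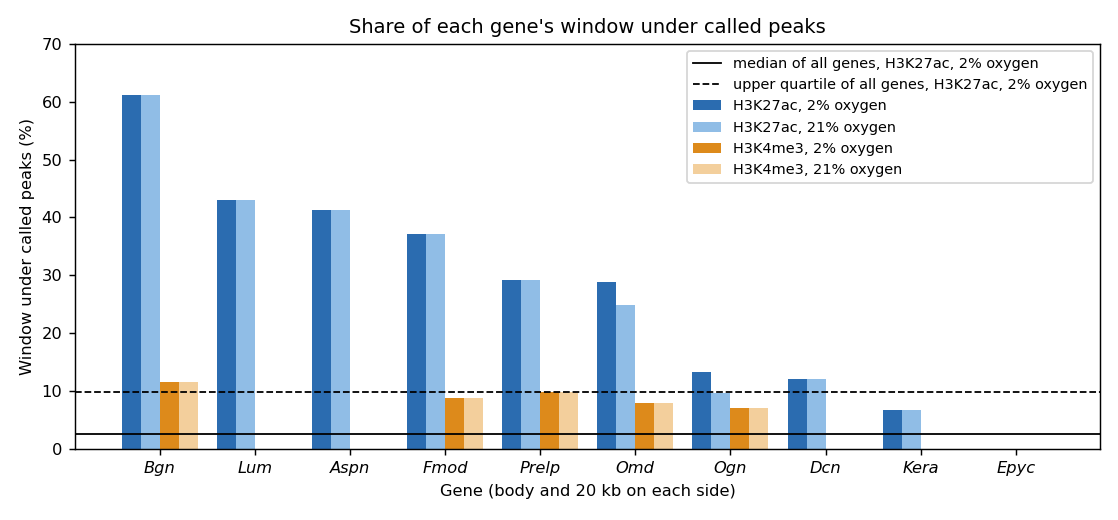
Share of each gene's window (gene body and 20 kb on each side, in %) under H3K27ac peaks (blue) and H3K4me3 peaks (orange), dark for 2% and light for 21% oxygen. The solid and dashed lines mark the median and the upper quartile of H3K27ac cover over all protein-coding genes in hypoxia. Bgn is highest at 61.1%, Epyc has no bar, and dark and light bars differ in Omd and Ogn only.

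Within the gene bodies the range was wider. H3K27ac covered the whole of Bgn and of Fmod, 73.0% of Prelp, 63.1% of Omd, 51.1% of Lum and 41.3% of Aspn at both oxygen levels. In Dcn, a longer gene of 38.5 kb, the peak at the start covered 17.9% of the body. Ogn had 21.0% of its body covered in hypoxia and 8.8% in normoxia. Kera and Epyc had no H3K27ac in the gene body. H3K4me3 kept to the starts and covered 39.7% of Prelp, 34.0% of Fmod, 27.6% of Bgn and 21.0% of Ogn.

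The acetylated stretch around a start, with touching peaks joined, also varied in width. It was widest at Aspn, with 17.0 kb that reached 7.4 kb before and 9.6 kb after the start, wider than 92.3% of joined H3K27ac stretches in hypoxia. Those of Bgn and Fmod were 14.5 kb wide and lay almost wholly downstream, reaching 13.9 kb and 13.7 kb after the start. Omd had 10.5 kb, Dcn 9.5 kb, Prelp 6.5 kb and Lum 4.0 kb. At Ogn the stretch was 4.0 kb in hypoxia and 2.0 kb in normoxia. The genes without H3K4me3 at the start were found at both ends of this order, with Aspn at the top and Lum among the narrowest.

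**Figure D3:**
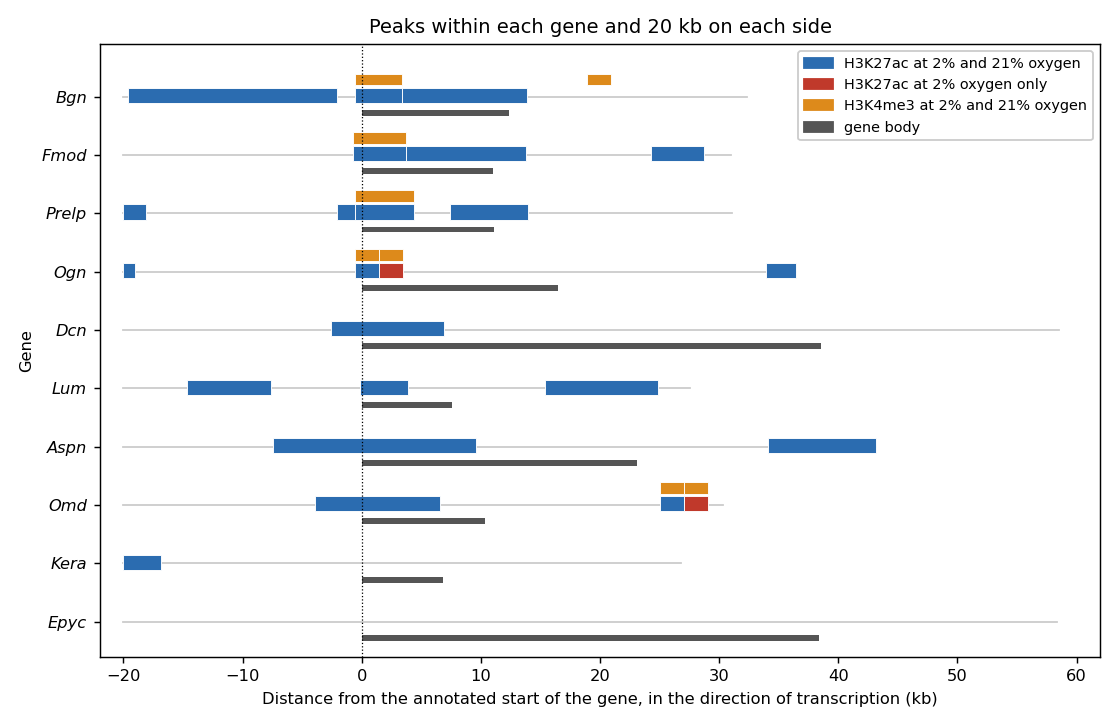
Peaks in the window of each gene, drawn from its annotated start in the direction of transcription (kb); blue bars are H3K27ac peaks of both oxygen levels, red bars H3K27ac peaks at 2% oxygen only, orange bars H3K4me3 peaks, dark grey bars gene bodies and thin lines the windows. Blue bars cross the start in 8 genes, orange bars in Bgn, Fmod, Prelp and Ogn, and the single red peak appears in the windows of both Ogn and Omd.

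The 4 genes on chromosome 10, Dcn, Lum, Kera and Epyc, lie in this order on the plus strand over 202.8 kb, and the marks changed along the row. This stretch held 4 H3K27ac peaks, which covered 13.5% of it, and no H3K4me3 peak at either oxygen level. The peak at the Dcn start (chr10:97477001-97486500, 9500 bp) covered exons 1 and 2 of 8, with a score of 104 in hypoxia and 129 in normoxia. At Lum, a 4000 bp peak (chr10:97565001-97569000) covered the start and exons 1 and 2 of 3, with scores of 91 and 90. Lum also had peaks outside its body on either side. One of 7000 bp began 7.6 kb upstream of the start (scores 88 and 91), and one of 9500 bp (chr10:97580501-97590000) began 15.4 kb downstream (scores 72 and 58).

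This downstream peak, between Lum and Kera, was the last in the row. Part of it, 3122 bp, was the only H3K27ac in the window of Kera, 16.9 kb upstream of the Kera start. From 97590001 to the end of Epyc at 97682454 there was no peak of either mark over 92.5 kb, and the next H3K27ac peak beyond Epyc lay 649.5 kb further on. The nearest H3K27ac peak to the Epyc start was 54.1 kb away. The cluster was thus split between Dcn and Lum, with acetylated starts, and Kera and Epyc, without a mark at their starts. All 4 peaks were called at both oxygen levels. Their equal positions follow from the boundaries that the lists share.

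The 3 genes on chromosome 13, Aspn, Omd and Ogn, span 80.1 kb and all lie within introns of Cenpp, a centromere protein gene transcribed from the other strand. Here each gene had its own acetylated start. The Aspn peak (chr13:49537001-49554000) was 17000 bp wide, wider than 94.7% of H3K27ac peaks in hypoxia, and covered exons 1 to 3 of 8. Its score was 1000 in hypoxia and 84 in normoxia. The Omd peak (chr13:49578501-49589000, 10500 bp) covered exon 1 of 3 and scored 1000 in both lists.

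Ogn was the gene of this cluster with H3K4me3, in adjoining peaks of 2000 bp each. The first (chr13:49607501-49609500) covered exons 1 and 2 of 7 and was also an H3K27ac peak in both lists, with scores of 126 in hypoxia and 115 in normoxia. The second (chr13:49609501-49611500) held exon 3 and was an H3K27ac peak in hypoxia only. The 63.1 kb from the first base of Aspn up to the Ogn start peak were free of H3K4me3. H3K27ac covered 30.1% of the cluster in hypoxia and 27.6% in normoxia. A further H3K27ac peak (chr13:49642001-49650000, 8000 bp) lay 34.0 kb downstream of the Ogn start over exon 3 of 8 of Cenpp, with scores of 108 and 105.

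The pair on chromosome 1, Prelp and Fmod, is transcribed in opposite directions from starts 115.8 kb apart. It was the most heavily acetylated of the clusters, with 8 H3K27ac peaks covering 69.0 kb of 138.0 kb. Both starts carried both marks. At Prelp the start peak (chr1:133917001-133922000, 5000 bp) covered exon 1 of 3, with H3K27ac scores of 1000 in hypoxia and 111 in normoxia. A second peak (chr1:133907501-133914000, 6500 bp) covered the last exon of Prelp and reached over the start of its neighbour Optc, another leucine-rich repeat gene, and of the gene model Gm15851, with scores of 95 and 82. At Fmod the start peak (chr1:134036501-134041000, 4500 bp) scored 104 and 87 for H3K27ac and covered exons 1 and 2 of 3, and a touching peak of 10000 bp took in the rest of the gene.

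Some of the acetylation of this pair lay at the edge of the windows or beyond them. A peak 18.1 kb upstream of Prelp (chr1:133939501-133943500, 4000 bp) was in part inside the Prelp window and scored 1000 in both lists. Just outside, between the genes, were the widest H3K27ac peaks of any of the clusters, of 23000 bp (chr1:133949001-133972000) and 20000 bp (chr1:133973501-133993500). They were 27.6 kb and 43.8 kb from the nearest proteoglycan start, wider than 97.1% and 96.0% of the list, and scored 1000 at both oxygen levels. Neither overlapped an H3K4me3 peak, and the first overlapped the gene model Gm1627. Which gene these peaks act on, if any, was not tested.

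Bgn stands alone on the X chromosome. Its body was covered by a 4000 bp peak at the start (chrX:73483001-73487000, exon 1 of 8) and a touching peak of 10500 bp over exons 2 to 8, with H3K27ac scores of 118 and 81 in hypoxia and 96 and 93 in normoxia. Upstream, from 2.1 kb before the start outwards, lay a peak of 17500 bp (chrX:73464001-73481500), wider than 95.0% of the list, with scores of 88 and 101. The window also held an H3K4me3 peak of 2000 bp without H3K27ac at the start of Atp2b3, a calcium pump gene. The genes outside the family whose 4 cover values came closest to those of Bgn (61.1% H3K27ac and 11.5% H3K4me3 at both oxygen levels) were Sf3a1, Piezo1 and Rps14, at Euclidean distances of 1.85, 2.02 and 2.75 percentage points.

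**Figure D4:**
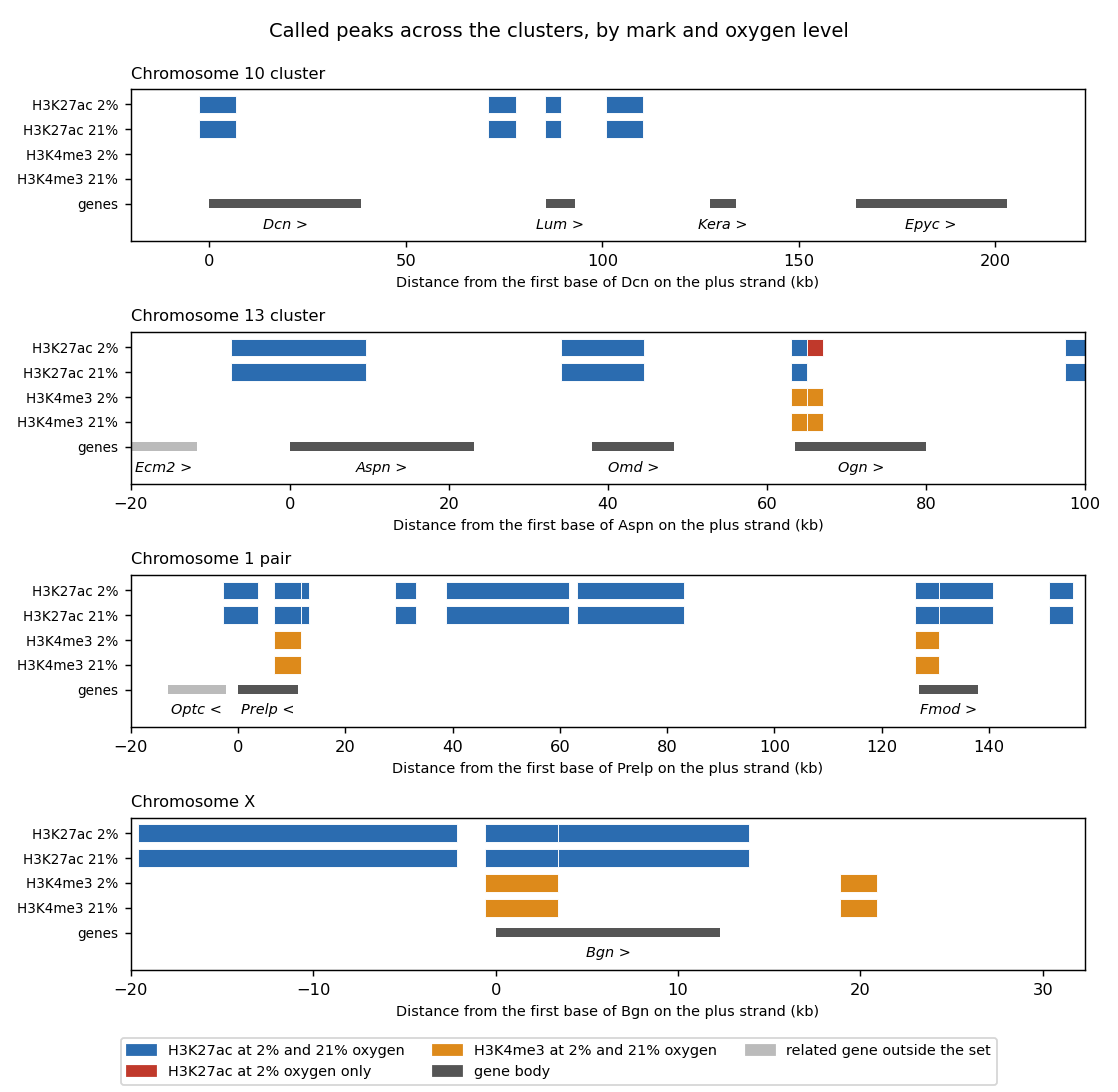
Called peaks by mark and oxygen level across the 3 chromosomal clusters and Bgn, drawn by distance (kb) from the first base of Dcn, Aspn, Prelp and Bgn; colours are as in the plot of peaks from the gene starts, and pale grey bars are the related genes Optc and Ecm2. The chromosome 10 row has no H3K4me3 and no peak over the 92.5 kb that hold Kera and Epyc, and the red bar at Ogn is the only peak found at 1 oxygen level.

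The effect of oxygen was then compared across the family. In all, the windows held 19 distinct H3K27ac peaks in hypoxia and 18 in normoxia, covering 129.9 kb and 127.9 kb of 510.4 kb (25.5% and 25.1%), and 6 H3K4me3 peaks at each oxygen level, covering 19.5 kb (3.8%). The family's H3K4me3 peaks were the same 6 intervals with the same scores in both lists, as were the scores of all 14600 H3K4me3 peaks shared between the lists. The lists share their boundaries, so equal positions and cover are not separate observations at each oxygen level. With all shared scores equal, H3K4me3 scores could not show a difference between oxygen levels. For H3K27ac, 18 peaks were shared, 1 was found in hypoxia only and 0 in normoxia only. Counted by window, 2 of 10 genes, Omd and Ogn, held a hypoxia-only H3K27ac peak, which was the same peak, and 0 held a normoxia-only one. Among all protein-coding genes, 4.70% had a hypoxia-only H3K27ac peak in their window and 1.15% a normoxia-only one. Counted by peak, 3.87% of all hypoxia H3K27ac peaks were absent from normoxia.

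The hypoxia-only peak was the 2000 bp interval at chr13:49609501-49611500, from 1.5 kb to 3.5 kb downstream of the Ogn start and over part of intron 2, exon 3 and part of intron 3. Its score was 55, with 6.0% of the hypoxia H3K27ac list scoring lower. It touched the shared start peak, so the difference was an extension of the acetylated stretch at Ogn from 2.0 kb to 4.0 kb. H3K4me3 covered the whole 4.0 kb at both oxygen levels, with a score of 86 for this interval in each list. The peak was no longer counted when a peak of the other list within 1000 bp was not allowed, or when the lowest-scoring 25% of peaks were left out.

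The central 200 bases of this interval, which lie in intron 2 of Ogn, are shown because it is the only place in the family where the peak lists of the oxygen levels differ. They are taken from the plus strand of GRCm38.p6, the coding strand of Ogn, with any CpG in capitals.
Ogn, hypoxia-only H3K27ac, chr13:49610401-49610600, plus strand: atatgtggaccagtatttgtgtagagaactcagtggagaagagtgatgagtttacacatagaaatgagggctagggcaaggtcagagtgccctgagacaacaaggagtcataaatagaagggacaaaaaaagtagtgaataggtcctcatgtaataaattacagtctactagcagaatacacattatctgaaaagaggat

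These bases held 0 CpG, and the whole interval had a GC content of 34.9% and a ratio of observed to expected CpG of 0.08, below all but 0.7% of hypoxia H3K27ac peaks. The adjoining start peak had 36.0% and 0.25.

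Scores of the shared H3K27ac peaks moved in both directions. Of 18, 11 had the higher score in hypoxia, 4 in normoxia and 3 were equal. Over all 14614 shared peaks, 39.9% were higher in hypoxia (5824), 2425 were higher in normoxia and 6365 were equal. Equal scores made up a larger part of all shared peaks, so the 39.9% is not a like share for the 11 of 18. Where scores differed, the higher one was more often in hypoxia in both sets. The lists also differed in their scores as a whole, with medians of 111 in hypoxia and 102 in normoxia. By rank within its own list, 9 of 16 peaks not at 1000 in both lists ranked higher in hypoxia and 7 in normoxia, against 36.4% of 12039 such peaks in all. The start peaks of Aspn and Prelp were at the top score of 1000 in hypoxia, which 3379 peaks shared (2802 in normoxia), so their rank of 77.8% there is that of the whole tied group and the size of their gaps has no scale. In normoxia, where they were below the top score, the Aspn start peak was above 36.8% of peaks and the Prelp start peak above 54.9%. The Dcn start peak went the other way, above 46.0% of peaks in hypoxia and 67.5% in normoxia. The peak between Lum and Kera was above 23.5% and 10.5%. Ogn's shared start peak was almost level, above 58.0% and 57.1%.

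**Figure D5:**
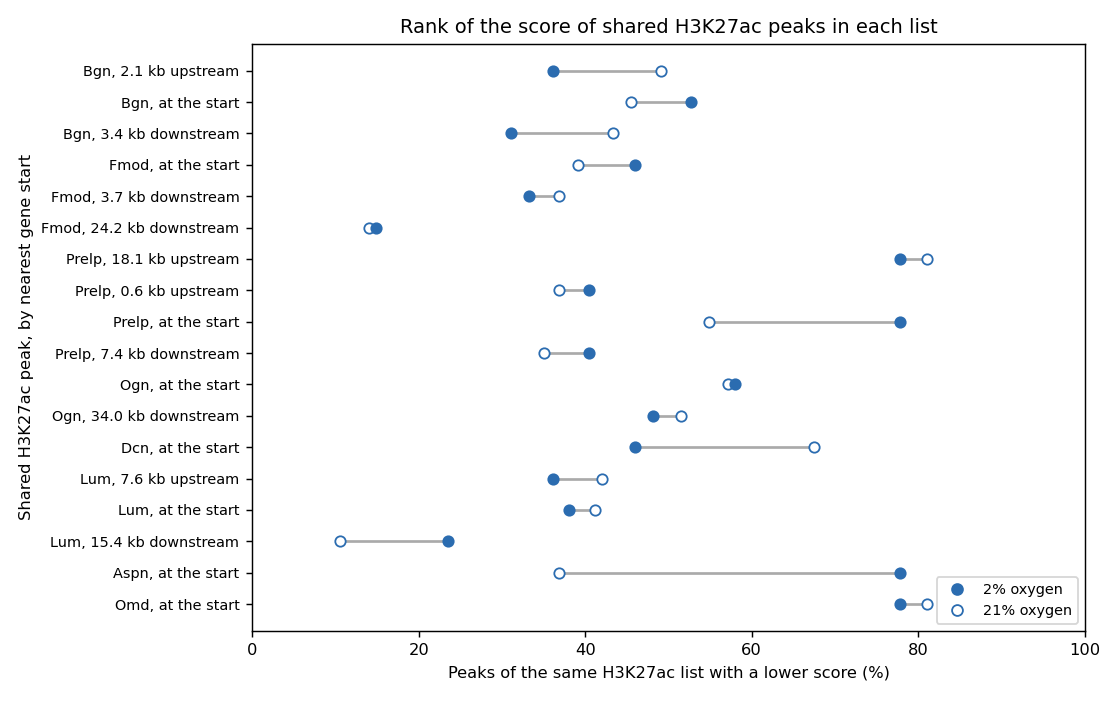
Rank of each shared H3K27ac peak in the windows, as the percentage of peaks of its own list with a lower score (x axis), at 2% oxygen (filled) and 21% oxygen (open). Peaks at the top score of 1000 are tied and appear at 77.8% (2% oxygen) or 81.1% (21% oxygen), among them the Aspn start peak in hypoxia alone (36.8% in normoxia), and the Dcn start peak is higher in normoxia (46.0% against 67.5%).

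Relatives of the family and the enzymes that build its sugar chains were read in the same way. Of 8 further leucine-rich repeat genes, 5 had H3K27ac at a start (Optc, Podn, Podnl1, Tsku and Nyx), against 37.6% of all genes in hypoxia. H3K4me3 was at a start of 2 (Podn and Tsku), against 58.9%, and these calls were the same at both oxygen levels. H3K27ac without H3K4me3 was thus found at Optc, Podnl1 and Nyx, as at Dcn, Lum, Aspn and Omd. Ecm2, which lies next to Aspn, had neither mark at its start, and its nearest H3K27ac peak was 10.8 kb away. The median H3K27ac cover of the relatives' windows was 9.07% in hypoxia, against 2.56% over all genes. Nyx had a hypoxia-only H3K27ac peak in its window (chrX:13495001-13497500, 2500 bp, score 51), 28.9 kb from its start.

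The 29 enzymes of chondroitin, dermatan and keratan sulfate synthesis had H3K4me3 at 26 starts and H3K27ac at 13 at both oxygen levels, the reverse of the family. This is also the order over all genes, with 58.9% and 37.6% in hypoxia. The 3 without H3K4me3 at a start, named here after their values were seen, were the sulfotransferase genes Chst13, Chst4 and Chst5. The median H3K27ac cover of the enzyme windows was 3.73% in hypoxia, against 2.56% over all genes and 29.0% for the core proteins. A single enzyme window held a peak of 1 oxygen level only. In Csgalnact1, which starts chondroitin chains, an H3K27ac peak of 12000 bp (chr8:68359001-68371000, score 51) was found in normoxia only, 364.1 kb from the start. Scores of 51 were above 0.7% of the hypoxia list and 0.8% of the normoxia list.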

How the data were processed

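ChIP-seq of H3K27ac and H3K4me3 was analysed from the 4 deposited peak lists, with both libraries of a group combined in its list. According to the study's methods and the labels, reads were aligned to mm10 by the authors (bowtie2), Picard was used to discard duplicates, and chromstaR, a hidden Markov model, called peaks in its differential mode for hypoxia against normoxia. Versions are not given in the sources used here. The deposited value per peak is a score of the authors, of undefined scale. The lists came from a joint segmentation in steps of 500 bp, so boundaries are shared between lists and are not independent. The inputs were not analysed here.

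Gene models were those of the GENCODE M21 basic annotation, promoters those of RefSeq (GRCm38.p6), and bases under peaks were read from the same assembly with pysam 0.24.0. Windows were the gene body with 20000 bp on each side, starts were read within 1000 bp, and a peak was of 1 oxygen level only if no base of it was in a peak of that mark at the other level. Overlaps were computed in Python 3.11.15, tested on simulated data and checked against bedtools 2.31.1, and plots were drawn with matplotlib 3.10.9. The genes, comparison lists (8 relatives, 29 enzymes, cell type markers) and motifs were chosen with earlier results of these data known, and 1 marker gene is not reported here. The named genes were all 10 family members, genes of the relative and marker lists, enzymes with a peak of 1 oxygen level only, neighbours with a peak at their start and the 3 genes closest to the member with the widest H3K27ac cover. The 3 enzymes without H3K4me3 were named outside this rule. The CpG content of whole peaks was added after the data were seen. Alternatives were other flanks, other distances to the start, leaving out low scores, joining peaks within 1000 bp and a minimum overlap. Protein sequences were not used here.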

Additional observations from a re-analysis of the deposited data

How the results depend on the processing

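No paired analysis was possible because each mark and oxygen level had a single list without values per library, and for the same reason no replicate could be left out. Of 84 alternative values for the family, 68 stayed within 1.5 times the value reported, among them H3K27ac at 8 of 10 starts in each list under each distance to the start and without low scores. The other 16 moved. With windows cut to the gene body, the H3K27ac peaks numbered 12 in hypoxia and 11 in normoxia, and H3K4me3 covered 8.5% in both. With a flank of 5000 bp H3K4me3 covered 6.3% in both, and with 50000 bp there were 11 H3K4me3 peaks in both. These follow from the smaller or larger windows. Without the lowest-scoring 25% of peaks (H3K4me3 scores under 124, and H3K27ac scores under 73 in hypoxia and 71 in normoxia), 1 H3K4me3 peak remained in each list, which was at the start of 1 gene, Fmod, and covered 0.9% of the windows. The hypoxia-only H3K27ac peaks fell to 0 without these peaks, and to 0 when the other list had to be free of peaks within 1000 bp. Without read counts, depth and replicate error could not be weighed, and a difference between oxygen levels smaller than a called state was not detectable.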

Other observations

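Among the comparison genes, 2 stromal markers had a low-scoring hypoxia-only H3K27ac peak in a gene that was also marked in normoxia, as Ogn did. At Cxcl12, a chemokine gene of marrow stroma, the peak at chr6:117172001-117181500 (9500 bp, score 52) began 3.4 kb from the start, and H3K27ac covered the whole gene in hypoxia and 27% in normoxia. At Thy1, a surface protein of stromal cells, the peak at chr9:44042501-44045500 (3000 bp, score 55) extended the cover from 59.3% of the gene to all of it. Unlike at Ogn, this peak lay over the beginning of the gene (0.0 kb from a start), which had no H3K27ac peak in normoxia. H3K27ac still lay within 1000 bp of another annotated Thy1 start in normoxia. For Ogn the corresponding values were 21.0% and 8.8%. H3K4me3 cover was the same in both lists in each of these 3 genes, at 27%, 40.7% and 21.0%. A hypoxia-only H3K27ac peak also lay in the window of the blood marker Cd79a (chr7:24902001-24905500, 3500 bp, score 57), 4.6 kb from its start, and H3K27ac covered 16.7% of that window in hypoxia and 8.9% in normoxia. These genes were set side by side after their values were seen, none of the differences has a replicate check, and scores of 52, 55 and 57 were above 2.1%, 6.0% and 8.5% of the hypoxia list.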
